A study of Megathyrsus maximus with 33 samples.

Results

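The change with time in the ambient control plots (C) of a field experiment on Guinea grass was described here, as time point B against time point A. Guinea grass (*Panicum maximum*, also *Megathyrsus maximus*) is a tropical C4 forage grass. The members were the 8 C libraries of the deposited log2 table, 4 from time point B and 4 from time point A, out of 32 libraries that the labels put in a group. They came from 4 plots that were each sampled at both time points, so that every plot was compared with itself, and all 39208 transcripts of the table were tested. In C plots neither [CO2] nor temperature was raised. The other 24 libraries came from plots with elevated [CO2] of 600 ppm (eC), with warming of 2 °C by infrared heaters (eT) and with both (eCeT), 4 plots each at both time points. A library holds RNA from several leaves of 1 plot, the youngest fully expanded ones, which were pooled before extraction. Time point B is given as 50 days and time point A as 30 days of treatment. The month of time point B is June in the study's methods but July in its data deposit, so the interval between the sampling days is uncertain, and plant age, season and the weather of the sampling day cannot be told apart. A replicate number is the number of the ring that holds the plot.

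Leaves of a grass canopy meet each sampling day with a changing set of transcripts, since chaperones follow leaf temperature, defence proteins follow contact with microbes and insects, and photosynthetic genes follow light and leaf age. Pathogenesis-related proteins are secreted or vacuolar proteins that attack microbial cell walls or membranes and that plants make when salicylic acid or related signals rise. Heat shock proteins bind proteins that lose their fold and keep them from clumping. A transcript is named here by its best match in Arabidopsis, and the role given with it is that of the Arabidopsis protein.

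Of the 39208 transcripts, 2930 were called higher and 2596 lower at B than at A in C, which is 7.47% and 6.62% of those tested (14.1% in either direction). A call is an adjusted p under 0.1 from a limma fit within plots. An unadjusted p under 0.05 in the same fit was reached by 9589 transcripts, the called ones included. The median change of all transcripts was 0.03 on the log2 scale, close to 0 in each of the 4 plots. Over all levels together, higher calls were larger than lower calls, with median changes of 1.32 and -0.81 on the log2 scale. Among transcripts of similar level the sizes were closer, as given below by level. A change of at least 2-fold was reached by 1856 of the higher and 963 of the lower calls, at least 4-fold by 827 and 253, and at least 8-fold by 135 and 26. In 2618 of the higher and 2073 of the lower calls all 4 plots moved the same way, against 6327 and 4759 of all 39208 transcripts. These counts rest on the values that gave the calls and are a description. The 4 B libraries lay apart from the 4 A libraries in 1690 of the higher and 1425 of the lower calls, against 2749 (7.01%) and 2070 (5.28%) of all transcripts. The spread behind the p-values was pooled over all 16 plots of the experiment, with 12 residual degrees of freedom, and is not that of the 4 C plots alone.

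**Figure D1:**
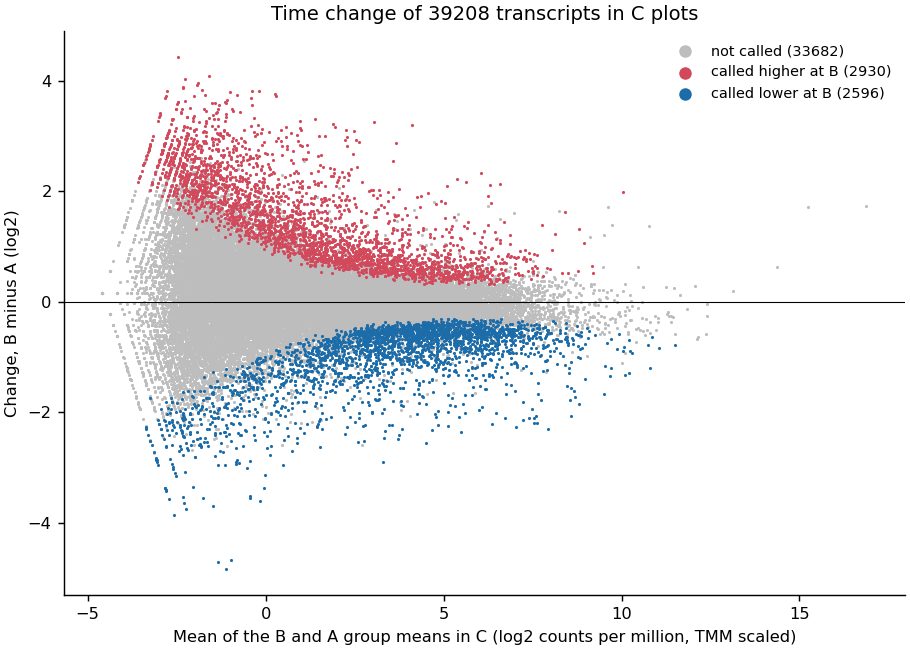
Change of each of the 39208 transcripts in C plots, B minus A on the log2 scale, against its mean level in C (log2 counts per 1e6 reads after TMM scaling). Red points are the 2930 transcripts called higher at B, blue points the 2596 called lower and grey points those not called. Higher calls are spread over all levels, lower calls lie more at high levels, and called changes are largest at low levels.

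The split between the directions moved with some ways of scaling the libraries. With each library centred on its median, 2004 transcripts were called higher and 4680 lower, and the median of all transcripts was -0.13 on the log2 scale. Without TMM scaling 1396 were called higher and 4164 lower, with a median of -0.20. The higher calls were 53.0% of all calls with TMM scaling, 30.0% with median centring and 25.1% without TMM scaling. They were 52.6% with quantile normalization (2785 higher and 2508 lower). With library sizes computed without the most abundant transcript, c78052_g1, they were 55.3%, in a setting added after the values were seen. Median centring and leaving out TMM scaling move every transcript of a library by the same amount. With these settings 4600 and 3981 of the 5526 main calls were kept, and 0 had the opposite sign.

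The 4 plots did not move by the same amount. Over all log2 values the Euclidean distance between the B and the A library of a plot was 217, 209, 266 and 255 for replicates 1 to 4. The mean distance of these libraries to those of the other C plots at the same time point was 210, 203, 210 and 208. Time thus separated the 2 libraries of replicates 3 and 4 by 1.27 and 1.22 times the distance between plots, and those of replicates 1 and 2 by 1.03 times. Across transcripts the changes of 2 plots correlated with a Pearson's r between 0.11 (replicates 1 and 2) and 0.42 (replicates 3 and 4), which is a description over 39208 transcripts of 8 libraries. The 2 plots with the larger distance also carried the calls. Without replicate 3, 1288 transcripts were called (664 higher and 624 lower), and without replicate 4, 2209 (1217 higher and 992 lower), whereas 5792 and 5429 were called without replicate 1 and replicate 2.

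Each plot could be set against calls made without it. The 664 transcripts called higher without replicate 3 were higher at B in replicate 3 in 95.2% of cases, with a median change of 1.47 on the log2 scale. Those called lower without replicate 3 were lower in it in 96.6% of cases, with a median of -1.07. For replicate 4 the shares were 91.3% and 95.3%. In replicate 1, 77.5% of the transcripts called higher and 62.9% of those called lower from the other 3 plots moved the same way, and in replicate 2 81.9% and 70.5%. The median changes of these higher and lower calls were 0.49 and -0.25 in replicate 1 and 0.51 and -0.25 in replicate 2. Over all transcripts the median change was 0.011, 0.038, 0.041 and -0.004 in replicates 1 to 4, so neither direction clearly prevailed there. The direction of the calls was thus shared by the plot left out in most transcripts, and least so for lower calls in replicate 1.

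Lower calls concentrated on abundant transcripts. The transcripts were put in 5 equal parts by mean level in C. In the part with the highest levels, 1299 were called lower (16.6%) and 562 higher (7.17%). In the lowest part, 162 were called lower (2.07%) and 571 higher (7.28%). The share of higher calls stayed between 6.30% and 8.34% in all 5 parts. The median size of a called change fell with level, being 2.40 and -2.26 on the log2 scale for higher and lower calls in the lowest part and 0.61 and -0.63 in the highest. A transcript had a median of 25 reads over the 8 libraries in the lowest part, and of 3330 reads in the highest. The median change of all transcripts, called or not, also moved with level. It was 0.27, 0.20, 0.11, -0.05 and -0.11 on the log2 scale from the lowest to the highest part. The part of this shift in the calls was not tested.

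**Figure D2:**
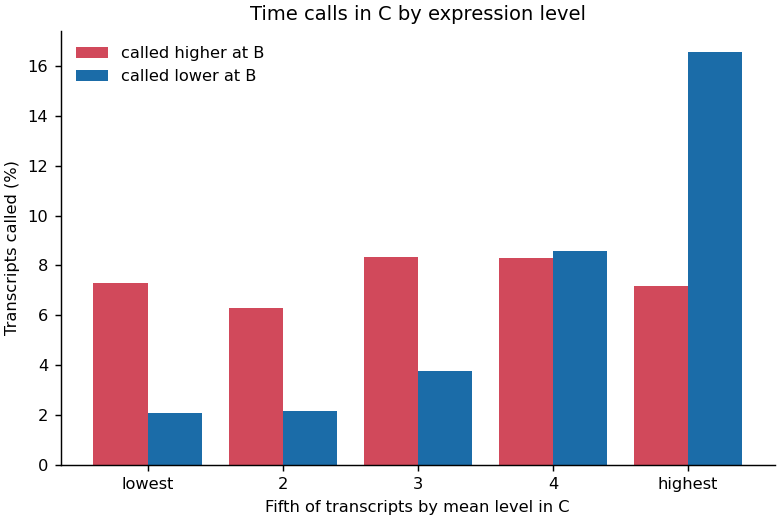
Share of transcripts called higher (red) and lower (blue) at B in C plots, in percent, in 5 equal parts of the 39208 transcripts ordered by mean level in C. The blue bar reaches 16.6% in the highest part and 2.07% in the lowest, and the red bars lie between 6.30% and 8.34%.

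The transcripts called lower held 13.1, 11.2, 5.60 and 8.87% of the reads of the 4 B libraries, against 19.7, 19.6, 17.0 and 19.7% of the reads of the 4 A libraries. The groups did not overlap, and the replicate 3 library had the lowest share at both time points. Those called higher held 4.69, 4.45, 5.89 and 5.86% of the reads at B, against 3.28, 3.49, 3.25 and 3.11% at A. These shares describe transcripts chosen by the same contrast and are no test.

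Depth was similar at both time points, with 10895901 to 13363198 recovered reads per C library at B and 10000959 to 12524820 at A. What filled the libraries differed. The 10 most abundant transcripts took 27.5 to 53.9% of the reads of the B libraries, against 13.8 to 21.6% of the A libraries. Most of this came from c78052_g1, a transcript without a name in the sources used here, which held 16.7, 16.3, 35.2 and 20.6% of the reads at B, against 4.23, 5.56, 11.7 and 11.4% at A. Every B library lay above every A library, and the replicate 3 library at B stood highest. Its change of 1.73 on the log2 scale (SE 0.93) was not called (limma, adjusted p = 0.263), but it was with voom. The unnamed c43596_g9, the second most abundant, followed the same order, with 5.34, 5.10, 11.4 and 6.34% of the reads at B, against 1.77, 1.90, 3.14 and 3.12% at A (change 1.71, SE 0.71, limma, adjusted p = 0.142).

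**Figure D3:**
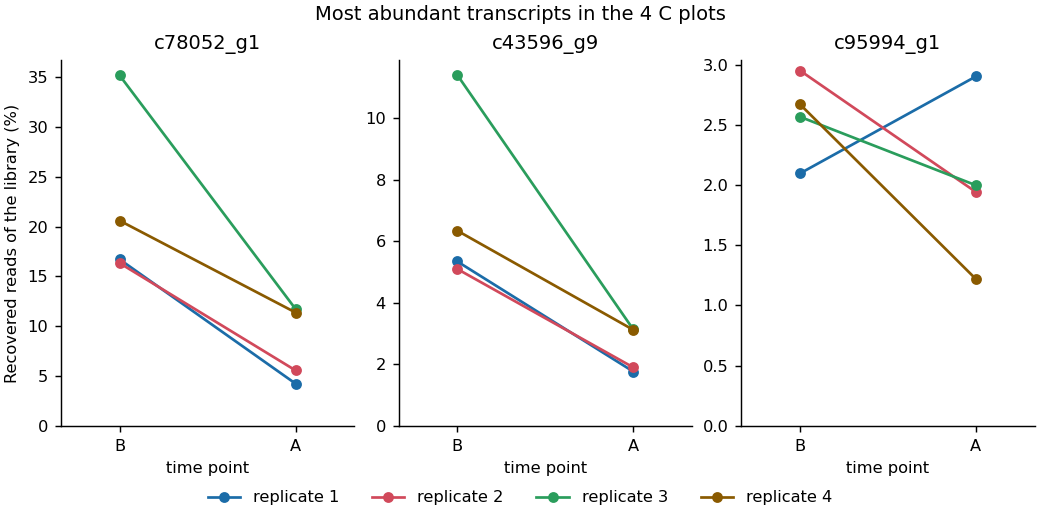
Share of the recovered reads of a library, in percent, held by the 3 most abundant transcripts in the 4 C plots, with B left of A and a line for each plot. c78052_g1 reaches 35.2% in replicate 3 at B and is at 4.23% in replicate 1 at A, while c95994_g1 shows no common direction.

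The third most abundant transcript, c95994_g1, held 2.10, 2.95, 2.57 and 2.67% of the reads at B, against 2.90, 1.94, 2.00 and 1.22% at A, and the groups overlapped. The next in order, c89333_g1 and c91508_g3, held between 0.35 and 1.11% at B and between 0.45 and 1.33% at A, and neither was called. Since 1 transcript took up to 35.2% of a library, the other transcripts shared what was left. With library sizes computed without c78052_g1, 2678 transcripts were called higher and 2161 lower, a setting chosen after the values were seen. The part of this transcript in the other calls was not tested beyond that.

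Among named genes, pathogenesis-related transcripts fell. Of 12 such transcripts 10 were called lower at B and none higher (6.62% of all transcripts were called lower), the other 2 had values below 0, and the median change was -2.04 on the log2 scale, against 0.03 for all transcripts. The median was -1.38, -2.96, -2.06 and -1.70 in the plots of replicates 1 to 4. All 12 come from the study's list of transcripts that set eCeT apart from C at time point A. That contrast used the same 4 C libraries of time point A, so the direction in C is not independent of how the list was made. In bulk leaf tissue fewer cells of a type and less RNA per cell cannot be told apart.

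**Figure D4:**
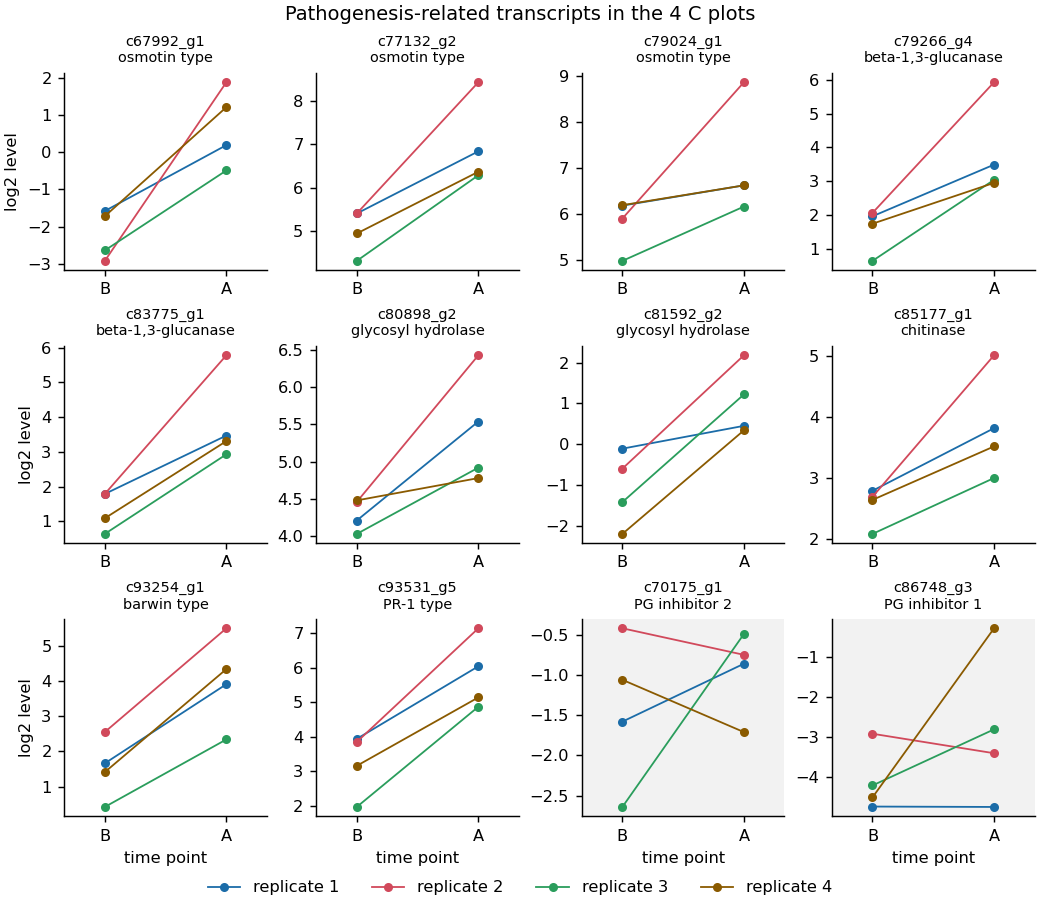
Level (log2 counts per 1e6 reads, TMM scaled) of the 12 pathogenesis-related transcripts in the 4 C plots, with B left of A, a line for each plot and a separate axis for each panel. The 10 panels on white were called lower at B and every line in them runs lower at B, while the 2 grey panels (PG, polygalacturonase) were not called, and replicate 2 at A is the highest point in 10 of the 12 panels.

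The transcript c93531_g5 was matched to a protein of the CAP superfamily, which holds cysteine-rich secretory and pathogenesis-related proteins. It had log2 levels of 3.94, 3.85, 1.97 and 3.16 at B, against 6.04, 7.14, 4.87 and 5.14 at A. The groups did not overlap. It fell by 2.56 on the log2 scale (SE 0.33, limma, adjusted p = 0.000403). Of 3 osmotin-type transcripts, which belong to the thaumatin-like PR-5 proteins that disturb fungal membranes, c77132_g2 had 5.41, 5.41, 4.32 and 4.95 at B, against 6.84, 8.43, 6.29 and 6.37 at A. Here too the groups lay apart, and the level fell by 1.96 (SE 0.32, limma, adjusted p = 0.00196).

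The other osmotin-type transcripts also fell, though 1 of them rested on few reads. c67992_g1 had 4, 1, 1 and 3 reads at B, against 15, 58, 7 and 26 at A (change -2.91 on the log2 scale, SE 0.58, limma, adjusted p = 0.00578). c79024_g1 had log2 levels of 6.19, 5.91, 4.99 and 6.20 at B, against 6.63, 8.87, 6.17 and 6.63 at A. Its groups overlapped by replicate 3 at A, all 4 plots were lower at B, and the change was -1.25 (SE 0.35, limma, adjusted p = 0.0318).

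Enzymes that cut cell wall polymers fell as well. Beta-1,3-glucanases of glycosyl hydrolase family 17 split callose and fungal glucans, and 4 transcripts of this family were called lower. c79266_g4 and c83775_g1, which match the same Arabidopsis glucanase and may be fragments of 1 gene, changed by -2.25 (SE 0.48) and -2.55 (SE 0.49, limma, adjusted p = 0.00829 and 0.00507). c83775_g1 had 46, 39, 14 and 24 reads at B, against 150, 875, 80 and 113 at A, and the replicate 2 library of A stood far above the rest. c80898_g2 changed by -1.12 (SE 0.33) and c81592_g2 by -2.13 (SE 0.63, limma, adjusted p = 0.0405 and 0.0408). The chitinase c85177_g1, which cuts the chitin of fungal walls, had log2 levels of 2.79, 2.69, 2.08 and 2.64 at B, against 3.82, 5.02, 3.00 and 3.52 at A, and fell by 1.29 (SE 0.32, limma, adjusted p = 0.019). c93254_g1, a secreted protein related to barley barwin, had 1.66, 2.55, 0.42 and 1.41 at B, against 3.91, 5.50, 2.34 and 4.34 at A. Its groups overlapped, since replicate 2 at B lay above replicate 3 at A, but each plot was lower at B (change -2.52, SE 0.47, limma, adjusted p = 0.00429).

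The list also held 2 polygalacturonase-inhibiting proteins, which block fungal pectin-cutting enzymes. c70175_g1 had 4, 8, 1 and 5 reads at B, against 7, 9, 7 and 3 at A, and c86748_g3 had 1 read at B and 11 at A over the 4 plots. Neither was called, at changes of -0.48 (SE 0.72) and -1.29 (SE 0.86). Without replicate 2, whose A library was highest for 10 of the 12 members, 6 of the 12 were called lower and the median was -1.80. Without that plot c79024_g1, c80898_g2, c81592_g2 and c85177_g1 lost their calls, at changes of -0.68, -0.84, -1.91 and -0.94. Without the plot of replicate 3, 7 of the 12 were called lower, at a median of -1.96, and c81592_g2 was also not called without replicate 4.

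Secondary metabolism, the making of defence and scent compounds, phenolics and terpenes, moved in the same direction in part. Of 17 transcripts 7 were called lower and none higher, against 6.62% and 7.47% of all transcripts. Values below 0 were found in 15, and the median change was -1.34 on the log2 scale, against 0.03 for all. The list was drawn from the same contrast for 16 of its members, so its direction is not independent either. The called ones were 3 cytochrome P450s of family 71, which oxidise many plant metabolites, 2 terpene synthases, an O-methyltransferase of the kind that methylates lignin and flavonoid precursors, and an NAD(P)-binding oxidoreductase.

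The P450 c92038_g1 had log2 levels of 2.34, 1.79, 1.13 and 2.05 at B, against 3.25, 4.71, 2.40 and 2.70 at A. All B libraries lay below all A libraries, and the level fell by 1.44 (SE 0.34, limma, adjusted p = 0.0134), with a change of -0.94 without the plot of replicate 2. The P450s c76852_g4 and c71466_g3 changed by -1.82 (SE 0.48) and -1.93 (SE 0.63, limma, adjusted p = 0.0258 and 0.0622). c76852_g4 had 13, 14, 5 and 15 reads at B, against 65, 119, 16 and 31 at A. A further P450, c82144_g1 of family 76, also lay lower in all 4 B libraries, but with a change of -1.36 (SE 0.58) it was not called (limma, adjusted p = 0.15).

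The terpene synthase c81347_g1, matched to an Arabidopsis sesquiterpene synthase, had 19, 15, 8 and 8 reads at B, against 53, 173, 23 and 37 at A. The groups lay apart and the change was -1.97 on the log2 scale (SE 0.49, limma, adjusted p = 0.0188). The terpene cyclase c66962_g2 had 1, 0, 0 and 1 reads at B, against 2, 7, 1 and 8 at A, and its call (adjusted p = 0.0983 in limma) was lost in 11 of 18 other settings. The O-methyltransferase c77834_g1 had 25, 8, 0 and 18 reads at B, against 35, 105, 14 and 26 at A (change -2.21, SE 0.74, limma, adjusted p = 0.0701). This call ended without the plot of replicate 2 or of replicate 3, at changes of -1.89 and -1.38. The oxidoreductase c72426_g1 had 11, 16, 10 and 22 reads at B, against 51, 53, 24 and 25 at A (change -1.15, SE 0.29, limma, adjusted p = 0.019). The replicate 2 library of A was the highest for 10 of the 17 members, and without that plot 4 of the 17 were called lower, as many as without the plot of replicate 3. c71466_g3 and c66962_g2 were called only with the plots of replicates 2, 3 and 4 all included.

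Among heat shock and chaperone transcripts 3 of 8 were called lower and none higher, against 6.62% and 7.47% of all transcripts. All 8 had values below 0, and the median change was -0.74 on the log2 scale, against 0.03 for all transcripts. Of these 8, 7 were taken from the study's contrast of eCeT with C at time point A. The median was -0.34, -0.68, -1.70 and -1.62 in the plots of replicates 1 to 4.

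The DnaJ-domain co-chaperone c88026_g1, of the class that hands clients to heat shock protein 70, had log2 levels of 4.88, 4.70, 4.04 and 4.21 at B, against 5.49, 5.00, 5.21 and 5.15 at A. The groups did not overlap, and it fell by 0.75 (SE 0.18, limma, adjusted p = 0.015). The transcript matched to MBF1C (c75211_g1), a coactivator of the heat response, had 43, 5, 0 and 5 reads at B, against 42, 47, 24 and 17 at A. Replicate 1 stood apart with almost the same reads at both times, while the other 3 plots were lower at B (change -2.42, SE 0.60, limma, adjusted p = 0.0179). The transcript with a weak match to the chloroplast small heat shock protein 21 (c78721_g1) had 25, 4, 6 and 5 reads at B, against 64, 50, 25 and 24 at A (change -2.07, SE 0.69, limma, adjusted p = 0.069). Its groups lay apart on the log2 scale, but the call was lost in 10 of 19 other settings.

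Without the plot of replicate 3 none of the 8 was called, at a median change of -0.68, and c88026_g1 then changed by -0.61 and c75211_g1 by -1.42. c78721_g1 was also not called without replicate 2 or replicate 4. Cytosolic small heat shock proteins gave values of the same sign. The class I type c76756_g2 had log2 levels of 4.13, 3.24, 2.15 and 1.63 at B, against 4.77, 4.06, 3.76 and 4.31 at A, with overlapping groups and a change of -1.44 that was not called (SE 0.55, limma, adjusted p = 0.11) but was without the plot of replicate 1, at -1.70. The class II type c85117_g1 changed by -0.68 (SE 0.31, adjusted p = 0.18 in limma). The disaggregase HSP101 (c88586_g2) had 3.09, 2.52, 1.80 and 1.70 at B, against 3.86, 2.28, 3.02 and 2.22 at A, a change of -0.57 (SE 0.44, limma, adjusted p = 0.447). The transcripts matched to a heat shock protein of the HSP90 class and to a further small heat shock protein had few reads, at most 11 in any C library.

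Photosynthetic and primary metabolism gave the 2 named transcripts that rose. Acetyl-CoA carboxylase 1 (c92877_g1), which makes malonyl-CoA for fatty acid synthesis and elongation, had log2 levels of 9.39, 8.88, 9.28 and 9.30 at B, against 7.48, 7.52, 7.82 and 7.54 at A. The B libraries lay within a narrow band well above the A libraries. The rise was 1.62 (SE 0.21), a fold change of 3.08 (limma, adjusted p = 0.000339), and it stayed between 1.52 and 1.71 when any 1 plot was left out. It was 1 higher call among 8 transcripts of other primary metabolism and transport, of which none was called lower and 7 had values below 0 (7.47% of all transcripts were called higher). Of these 8, 6 were taken from the contrast of eCeT with C at time point A. The other 2 were taken from transcripts of time point B, so that C libraries of that time point were used in their choice. The study names the carboxylase among its transcripts of time point B, so the rise in C is not independent of the choice.

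NDF1 (c84013_g1), a subunit of the chloroplast NDH complex that cycles electrons around photosystem I, had 5.39, 5.83, 5.66 and 5.37 at B, against 4.65, 3.87, 5.03 and 3.91 at A. The groups lay apart and the rise was 1.20 (SE 0.33, limma, adjusted p = 0.0308), but the call ended without the plot of replicate 2 or of replicate 4, at 0.94 and 1.11. LHCA6 (c82081_g1), an antenna protein that joins the NDH complex to photosystem I, had 5.01, 5.79, 5.37 and 5.39 at B, against 4.48, 4.35, 5.22 and 4.59 at A. All 4 plots were higher at B, the groups overlapped, and the change of 0.74 (SE 0.34) was not called (limma, adjusted p = 0.186). Ribulose-5-phosphate 3-epimerase (c81866_g1), an enzyme of the Calvin cycle, had 8.22, 8.53, 8.16 and 8.64 at B, against 9.26, 8.75, 9.51 and 9.25 at A. It lay lower in every B library and fell by 0.80 (SE 0.19, limma, adjusted p = 0.0135), and by 0.62 without the plot of replicate 3, which was not called. Of the 6 photosynthesis transcripts 1 was called higher and 1 lower, against 7.47% and 6.62% of all transcripts, and the median change was 0.38, against 0.03 for all. These are the only leaf markers the sources name, and 5 of the 6 had 10 or more reads in every C library. The least read of them was an ACD1-like transcript with 8 reads at B and 3 at A. Of the 6, 5 came from the contrast of eCeT with C at time point A and 1 from transcripts of time point B. C libraries were thus used in their choice.

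Aspartyl proteases, which cut proteins in the cell wall or vacuole, were the other group with calls. c87028_g2 had log2 levels of 7.94, 8.08, 8.13 and 7.60 at B, against 9.25, 9.03, 9.03 and 9.23 at A. The groups were wide apart compared with the spread between plots, and the level fell by 1.20 (SE 0.23, limma, adjusted p = 0.00523). c80798_g1 had 5.38, 4.90, 3.95 and 4.93 at B, against 5.80, 6.40, 4.72 and 5.55 at A. Each plot was lower at B though the groups overlapped (change -0.83, SE 0.24, limma, adjusted p = 0.0391), and its call ended without the plot of replicate 2 (-0.60) or of replicate 3 (-0.85). c78495_g3 changed by -0.84 (SE 0.33) and was not called (limma, adjusted p = 0.116). Of the 4 proteases 2 were called lower and none higher, with a median of -0.83, against 6.62% and 7.47% and a median of 0.03 over all transcripts. Of these 4, 3 came from the contrast of eCeT with C at time point A and 1 from transcripts of time point B. Their direction in C is thus not independent of the choice.

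No call was made among receptors and resistance proteins, flowering regulators and transcription regulators. The 14 receptor kinases and resistance proteins, which sense microbes or damage at the cell surface or inside the cell, had 6 values above and 8 below 0 and a median of -0.21. All 14 came from the contrast of eCeT with C at time point A. Replicate 2 at A was the highest A library for 12 of the 14, and the median change was -0.89 in its plot and 0.37, 0.23 and 0.50 in those of replicates 1, 3 and 4. The ADR1-like resistance transcript c70514_g1 had 3, 4, 3 and 6 reads at B, against 1, 1, 1 and 2 at A, a change of 1.52 (SE 0.60) that was not called (limma, adjusted p = 0.12).

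Both transcripts matched to FT (c64038_g2 and c77009_g3), the mobile signal that starts flowering in Arabidopsis, behaved differently between plots. c77009_g3 had log2 levels of -0.67, 2.80, 2.08 and 2.51 at B, against 3.54, 1.51, 3.34 and 3.09 at A. Replicate 1 dropped most and replicate 2 was higher at B. Its change was -1.19 (SE 0.56, limma, adjusted p = 0.197), and -2.01 without the plot of replicate 2, where it was called, but -0.18 without that of replicate 1. c64038_g2 had 3, 27, 40 and 45 reads at B, against 76, 22, 59 and 101 at A, with a change of -1.30 (SE 0.55, limma, adjusted p = 0.151), and it too was called without the plot of replicate 2, at -1.995, but was at -0.26 without that of replicate 1. The CONSTANS-like transcript c83306_g1, a relative of the day length factor CONSTANS, had 2.19, 2.06, 1.89 and 2.42 at B, against 0.85, 1.31, 1.75 and 1.26 at A. All B libraries lay above all A libraries, but the change of 0.85 (SE 0.41) was not called (limma, adjusted p = 0.205). The list holds 3 transcripts, of which 2 were taken from transcripts of time point B, so that C libraries of that time point were used in their choice. The 3 transcription regulators, all from the contrast of eCeT with C at time point A, changed by values between -0.45 and 0.56, none of them called. Over all 9 lists 2 of the 75 transcripts were called higher and 23 lower, against 7.47% and 6.62% of all transcripts. Without the plot of replicate 2 these were 2 and 17, and without that of replicate 3, 2 and 12. The median was -0.72, and 67 of the 75 were taken from the contrast of eCeT with C at time point A.

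The strongest changes in C fell on transcripts without a name in the sources used here. Among called transcripts with at least 100 reads over the 8 libraries and groups that lay apart, the 3 largest rises were those of c95320_g1, c96546_g3 and c76309_g6, at 3.82, 3.77 and 3.74 on the log2 scale. c96546_g3 had 22, 33, 131 and 64 reads at B, against 1, 6, 5 and 5 at A (SE 0.39, limma, adjusted p = 5.83e-05). The rise was largest in replicate 3. c95320_g1 had 15, 12, 120 and 49 reads at B, against 0, 3, 3 and 7 at A, and c76309_g6 had 13, 14, 55 and 29 at B, against 1, 0, 2 and 8 at A. In all 3 the replicate 3 library was highest and the replicate 4 library second at B. With 5 reads added before the logarithm in place of 0.5 the rises of c95320_g1, c96546_g3 and c76309_g6 were 2.47, 2.79 and 2.17.

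The 3 largest falls were those of c96591_g1, c61208_g1 and c65859_g1, at -4.84, -4.72 and -4.68 on the log2 scale. c61208_g1 had 1, 1, 0 and 0 reads at B, against 32, 34, 6 and 58 at A (SE 0.60, limma, adjusted p = 0.000339). c65859_g1 had 1, 1, 1 and 0 at B, against 31, 39, 16 and 56 at A, and c96591_g1 had 0, 2, 1 and 0 at B, against 33, 49, 11 and 52 at A. All 3 were almost absent at B, and replicate 3 was their lowest A library. With so few reads at B the size of these changes depends on the 0.5 reads added before the logarithm. With 5 reads added they were -2.53, -2.36 and -2.55.

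Few transcripts were read at only 1 time point. Counting those with 0 reads in 1 group and at least 20 over the other, 9 were read at B only, of which 8 were called, and 7 at A only, all of them called. c84473_g3 had 3, 4, 29 and 18 reads at B and none at A, which is at least 20.3-fold higher at B against a floor of 3 reads over the group. c69218_g1 had 3, 3, 19 and 6 reads at B and c73577_g1 had 3, 2, 16 and 8, with none at A (at least 11.6-fold and 10.9-fold higher). Again replicate 3 held most of the reads. Read at A only, c68795_g1 had 6, 12, 3 and 15 reads there and none at B, at least 10.6-fold lower at B. c9343_g1 and c52028_g1 had the same reads in all 8 C libraries, 184, 0, 0 and 24 at A and none at B, so that they cannot be told apart by these counts. They rest on 2 plots, and their calls ended without replicate 1 (-1.65) or replicate 4 (-2.62).

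The time change was also measured in the plots of the other treatments, which share no library with C. Of the transcripts called higher in C, 88.0% were higher at B in eC, 93.9% in eT and 90.3% in eCeT, against 52.2, 53.6 and 51.2% of all transcripts. Of those called lower, 96.9, 94.5 and 90.9% were lower there, against 47.8, 46.4 and 48.8% of all. In all 3 other treatments together 2241 of the 2930 higher calls (76.5%) and 2226 of the 2596 lower calls (85.7%) had the direction of C, against 28.1% and 24.9% of all transcripts. Outside C the median changes were 0.60, 0.75 and 0.57 on the log2 scale in eC, eT and eCeT for the higher calls, against 1.32 in C. For lower calls they were -0.63, -0.55 and -0.43, against -0.81 in C. The transcripts were chosen by their change in C, so that these sizes are a description. Of the higher calls 869 were also called higher in eC, 1099 in eT and 619 in eCeT, where 5.96, 7.15 and 3.1% of all transcripts were. Of the lower calls 1405, 1234 and 622 were also called lower there, against 7.46, 7.22 and 2.94% of all transcripts. Called in all 4 treatments were 179 transcripts higher and 412 lower, while 1276 and 811 of the C calls were called in no other treatment. The fit pooled the spread of a transcript over all treatments, so calls in different treatments are not independent. These overlaps of calls are a description.

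A test of the C change against the mean change of eC, eT and eCeT called no transcript (0 of 39208, percent called 0). At an unadjusted p under 0.05 there were 2036, the smallest adjusted p in limma was 0.535, and voom also called 0. Without TMM scaling 2 were called. At this number of plots no transcript was thus shown to change with time in C differently from the other treatments.

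**Figure D5:**
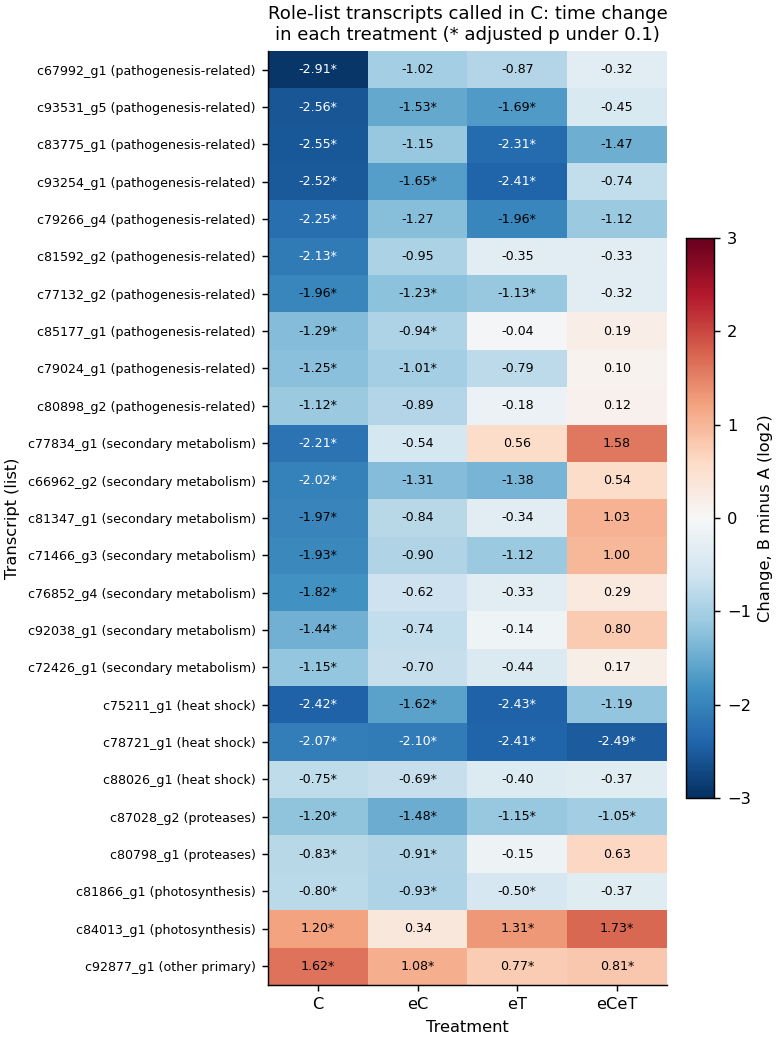
Change with time (B minus A, log2 scale) of the 25 role-list transcripts called in C, in C, eC, eT and eCeT, with red for higher and blue for lower at B and an asterisk at an adjusted p under 0.1 (limma). The rows were chosen by their call in C, so a darker C column follows from the choice, and c78721_g1 and c87028_g2 are called lower and c92877_g1 is called higher in all 4 treatments.

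The lists are given here by treatment, though they were chosen partly through C libraries. For pathogenesis-related transcripts the median change was -2.04 in C, -1.08 in eC, -1.01 in eT and -0.32 in eCeT, and 10, 5, 5 and 1 of 12 were called lower (in eC, eT and eCeT 7.46, 7.22 and 2.94% of all transcripts were). The difference between C and the other treatments was below 0 for 11 of the 12, against 19472 of all 39208 transcripts. It had an unadjusted p under 0.05 for 6, all below 0, against 837 below and 1199 above 0 among all transcripts, and an adjusted p under 0.1 for none. For secondary metabolism the medians were -1.34 in C, -0.62 in eC, -0.33 in eT and 0.54 in eCeT, and 7, 1, 2 and 2 of 17 were called lower, with 2 also called higher in eCeT and none elsewhere. Of the 17 members 16 were picked by a contrast of eCeT with C at A, so the order of C and eCeT is not independent of the choice. For heat shock transcripts the medians were -0.74 in C, -1.88 in eC, -1.82 in eT and -1.30 in eCeT, and 3, 7, 5 and 3 of 8 were called lower. The difference between C and the others was below 0 for 2 of the 8, with an unadjusted p under 0.05 for 2, both above 0, and an adjusted p under 0.1 for none. The proteases had -0.83 in C, -0.77 in eC, 0.02 in eT and 0.40 in eCeT.

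Of the single genes, acetyl-CoA carboxylase 1 (c92877_g1) rose in all 4 treatments, by 1.62 in C, 1.08 in eC, 0.77 in eT and 0.81 in eCeT (limma, adjusted p = 0.000339, 0.00568, 0.024 and 0.0412). C libraries of time point B were used in the choice of this transcript, so its larger rise in C is not independent of that choice. The aspartyl protease c87028_g2 changed by -1.20 in C, -1.48 in eC, -1.15 in eT and -1.05 in eCeT, and c61208_g1 by -4.72, -4.45, -5.31 and -4.95 in the same order, all of them called. c96546_g3, with 1 of the 3 largest rises, changed by 3.77 in C, 1.18 in eC, 1.69 in eT and 1.22 in eCeT. It was among the transcripts with the smallest adjusted p of the whole table for a difference between C and the others. This was 0.535 in limma, which misses the threshold. The unnamed c81267_g1 shared this adjusted p with a fall in C. It changed by -2.235 in C, -1.29 in eC, -0.44 in eT and 0.36 in eCeT. c78052_g1, the most abundant transcript, had a change of 1.73 in C, -0.88 in eC, 0.40 in eT and 2.46 in eCeT, none of them called.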

How the data were processed

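RNA of pooled leaves was sequenced by the authors as paired reads on a HiSeq2500 from TruSeq libraries, base calls were converted with CASAVA and bcl2fastq 1.8.4 per the labels, and reads were assembled de novo with Trinity. The aligner and the counting program are not given in the sources used here. The authors deposited log2 values, the reads of a transcript plus 0.5 per 1e6 of a TMM-scaled library size in the form of voom, with extreme outliers removed by them. They also deposited FPKM values for 45073 transcripts, of which 39117 are in both tables. Header lines that contradict each other kept 3 C columns of the FPKM values out of use, so only 2 C plots (replicates 1 and 2) had both time points there.

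Reads were recovered from the log2 values, of which those up to 1000 reads (96.2% of all) lay within 0.02 of a whole number in 100% of cases. Intervals of such reads, and the floor of 3 reads over a group, cover counting error only. No count model was used, because the deposited table holds log2 values. limma 3.58.1 in R 4.3.3 fitted all 32 libraries with a term for each of the 16 plots and a change with time for each of the 4 treatments, a variance trend (8.09 prior degrees of freedom) and Benjamini-Hochberg adjustment over all transcripts. The call threshold was an adjusted p of 0.1, as in the study. The fit was also run on simulated reads with known changes in C, with results not given here. Tables were made with pandas 2.3.3, numpy 2.4.6 and scipy 1.17.1 under Python 3.11.15, figures with matplotlib 3.10.9.

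Pairing comes from the labels, which give each library its plot. The deviations of the B and A libraries of a plot from their group means correlated at -0.004, 0.024, 0.123 and 0.0 for replicates 1 to 4, so little was shared within a plot beyond the change.

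Transcripts were named from the BLASTX matches in the study's supplementary files, at an E value of at most 1e-05 and leaving out alignments listed for several transcripts (96 of 165 usable, 75 in 9 lists). The named transcripts are the list members that were called or are central to a list, the 3 largest rises and falls among called transcripts with at least 100 reads and groups apart, the 5 with the most reads, and the 3 with the most reads at only 1 time point per direction. Also named is the transcript with the smallest p per sign for a difference between C and the others. The choice of C plots, the lists and the tests were made with earlier results of these data known. The alternatives were no plot term, C libraries alone, no variance trend, robust moderation, array weights, quantile normalization, median centring, no TMM scaling, a minimum of 1 CPM, voom, 5 reads added, the FPKM table, a threshold of 0.05 and each plot left out. Library sizes without c78052_g1 were added after the values were seen. The pooled MiSeq library used for the assembly was not analysed here.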

Additional observations from a re-analysis of the deposited data

Results flagged for a closer look

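Among 115 groups of 4 C libraries examined for a single library far from the rest, 2 had one, fewer than the 1 in 20 that chance gives. The reads held by transcripts called lower stood at 17.0% in replicate 3 at A, below the other 3 A libraries (19.6 to 19.7%), a gap of 0.933 of the range. c96546_g3 had a log2 level of -3.18 in replicate 1 at A, where it had 1 read, a gap of 0.841 of the range. Both results were reported with their values for each plot.

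For 5 of 55 transcripts examined in this way, all 4 C plots moved one way and all 4 plots of another treatment the opposite way. The difference between these pairs of treatments was not tested. Against eCeT these were the P450 c92038_g1 (-1.44 in C and 0.80 in eCeT), the oxidoreductase c72426_g1 (-1.15 in C and 0.17 in eCeT) and the aspartyl protease c80798_g1 (-0.83 in C and 0.63 in eCeT). All 3 belong to lists drawn largely from a contrast of eCeT with C at time point A. The study reports the Arabidopsis match of c72426_g1 among its transcripts of time point B. C libraries of that time point may thus have been used in its choice. Against eC these were the 2 most abundant transcripts, c78052_g1 (1.73 in C and -0.88 in eC) and c43596_g9 (1.71 in C and -1.09 in eC).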

How the results depend on the processing

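With no replicate block, that is without the pairing by plot, 2657 transcripts were called higher and 2402 lower, 4649 of them calls of the paired fit, and 7 of 12 pathogenesis-related transcripts were called lower. A fit of the 8 C libraries alone called 1720 higher and 1317 lower, no variance trend gave 1696 lower, and an adjusted p under 0.05 left 1685 higher and 1516 lower. Median centring gave 4680 lower. Without TMM scaling 1396 were higher and 4164 lower, and 2 transcripts differed between C and the other treatments (smallest adjusted p 0.0812 in limma). Leaving out 1 plot gave 664 to 2926 higher and 624 to 2866 lower calls, with the lowest counts without replicate 3. In the FPKM table only the C plots of replicates 1 and 2 had both time points, those with the smaller distance across time. There 1 was called higher and 5 lower with a pseudocount of 1 and 0 and 0 with 0.1 (3719 and 3504 at an unadjusted p under 0.05). Of the calls 231 and 222 had the opposite sign there. The loss of calls cannot be divided between the FPKM measure and the missing plots. The FPKM table was the only setting in which a call changed sign.

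The ratio of the distance across time to that between plots was 1.14, against 1.30 over the 500 most variable transcripts and 1.29 for 1 minus the Spearman correlation. The mean share of C calls with the same direction elsewhere was 92.3%, against 86.0% with 5 reads added, 94.5% at an adjusted p under 0.05, and 90.4 to 95.5% with 1 plot left out. Transcripts read only at B and only at A numbered 37 and 30 at a limit of 10 reads, 15 and 22 when each plot had to hold a read, and 3 to 23 and 5 to 19 with 1 plot left out.

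Of single transcripts, c73129_g1 (0.72) was at -0.072 and -0.10 in the FPKM table with a pseudocount of 1 and 0.1, and c95320_g1 (3.82) at -0.51 with a pseudocount of 1. c95994_g1 (0.64) was at -0.57 after quantile normalization. The causes of these differences were not tested. With 4 plots and 1 library per plot and time, low transcripts were limited by their reads: fold changes against 0 to 3 reads are bounds or depend on the reads added.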
